A study of Rattus norvegicus with 18 samples.

Results

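The 9 genes examined here belong to the chondroitin sulfate proteoglycan matrix of the brain and spinal cord, and their messages were measured in rat spinal cord material. They were Ncan, Bcan, Acan, Vcan, Cspg5, Ptprz1, Spock1, Tnr and Hapln1, and every probe set whose platform annotation carried one of these symbols and no other was taken. This gave 9 genes with 18 probe sets, of 14217 named genes and 31042 probe sets tested. No filter on low values was applied, so all 18 probe sets were tested. The material was measured on 18 single-colour Affymetrix arrays in 3 groups of 6. One group was given bone morphogenetic protein (BMP, a growth factor related to TGF-beta) at 10 ng/mL for 4 days, as the entry "4d" was read. The second was given ciliary neurotrophic factor (CNTF, an IL-6-type cytokine that activates STAT3) at the same dose and time, and the third was labelled control. No time stands in the control labels, so a difference in sampling time between control and treated material cannot be told apart from the additions. The entry 14 NT, which all 18 descriptions share, was not interpreted, and the labels name no BMP family member, no cell type and no culture. Titles number the arrays 1 to 6 within each group, and an array is named here by its group and number. No label ties an array to its own animal or culture. The p-values therefore measure only how these arrays vary, and that variation may be technical.

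Chondroitin sulfate proteoglycans are core proteins with long sulfated sugar chains. The lecticans (neurocan, brevican, aggrecan and versican) bind hyaluronan at one end and tenascin-R at the other, and link proteins lock them onto the hyaluronan. This mesh surrounds neurons and synapses, becomes denser in glial scars after spinal cord injury, and restrains axon growth. Some members are made mainly by astrocytes, others by cells of the oligodendrocyte lineage or by neurons. Tenascin-R and Hapln1 belong to the mesh without being classical proteoglycans, and Cspg5, Ptprz1 and Spock1 are proteoglycans outside the lectican family.

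Levels are log2 of the deposited intensity plus a constant of 116.7, which compresses differences of dim probe sets. The median of the whole table lay at 9.75 on this scale (intensity 745.0). Array medians were 666.5 to 817.2, and for arrays the number per group limits the precision. A probe set was called at a limma adjusted p under 0.05, and a gene was counted by its brightest probe set. Arrays with the same number deviated together, so a fit with the title number as a block was also run. Its values are given where they change the call of a member probe set. For other genes they are given for some probe sets only, so a block value not given may differ.

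With BMP, the message for tenascin-R was 5.01-fold lower than in control, Ptprz1 was 2.13-fold lower, Cspg5 was lower on every array, and Spock1 was 3.38-fold higher. With CNTF, Cspg5 was the only member called in the fit without the block, also lower. In that fit Ncan, Vcan, Acan and Hapln1 were not called in any of the 3 comparisons. Against control, BMP gave 1 called member probe set of 18 higher and 4 lower. Among all probe sets tested, 3.44% were called higher and 2.57% lower. By brightest probe set, 1 of 9 genes was higher and 3 were lower, where 4.21% and 3.02% of all named genes were. The probe sets of Cspg5 and Spock1 had BMP and control levels that did not overlap, which held for 2.83% of the table. The median member difference was 0.13, against 0.011 over all probe sets. With the title number as a block 2 probe sets were higher and 6 lower, where all probe sets gave 9.1% and 7.58%. CNTF gave 0 member probe sets higher and 1 lower by limma, where all probe sets gave 1.58% and 0.738%. An unadjusted p under 0.05 was found for 8 of 18 member probe sets with BMP and for 4 with CNTF, where 18.6% and 11.4% of all probe sets had one. By brightest probe set this was 0 genes higher and 1 lower of 9, where 2.03% and 0.823% of named genes were. The median member difference was -0.095, against -0.0069 over all probe sets. With the block 2 CNTF probe sets were higher and 2 lower, where all probe sets gave 4.19% and 3.38%.

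**Figure D1:**
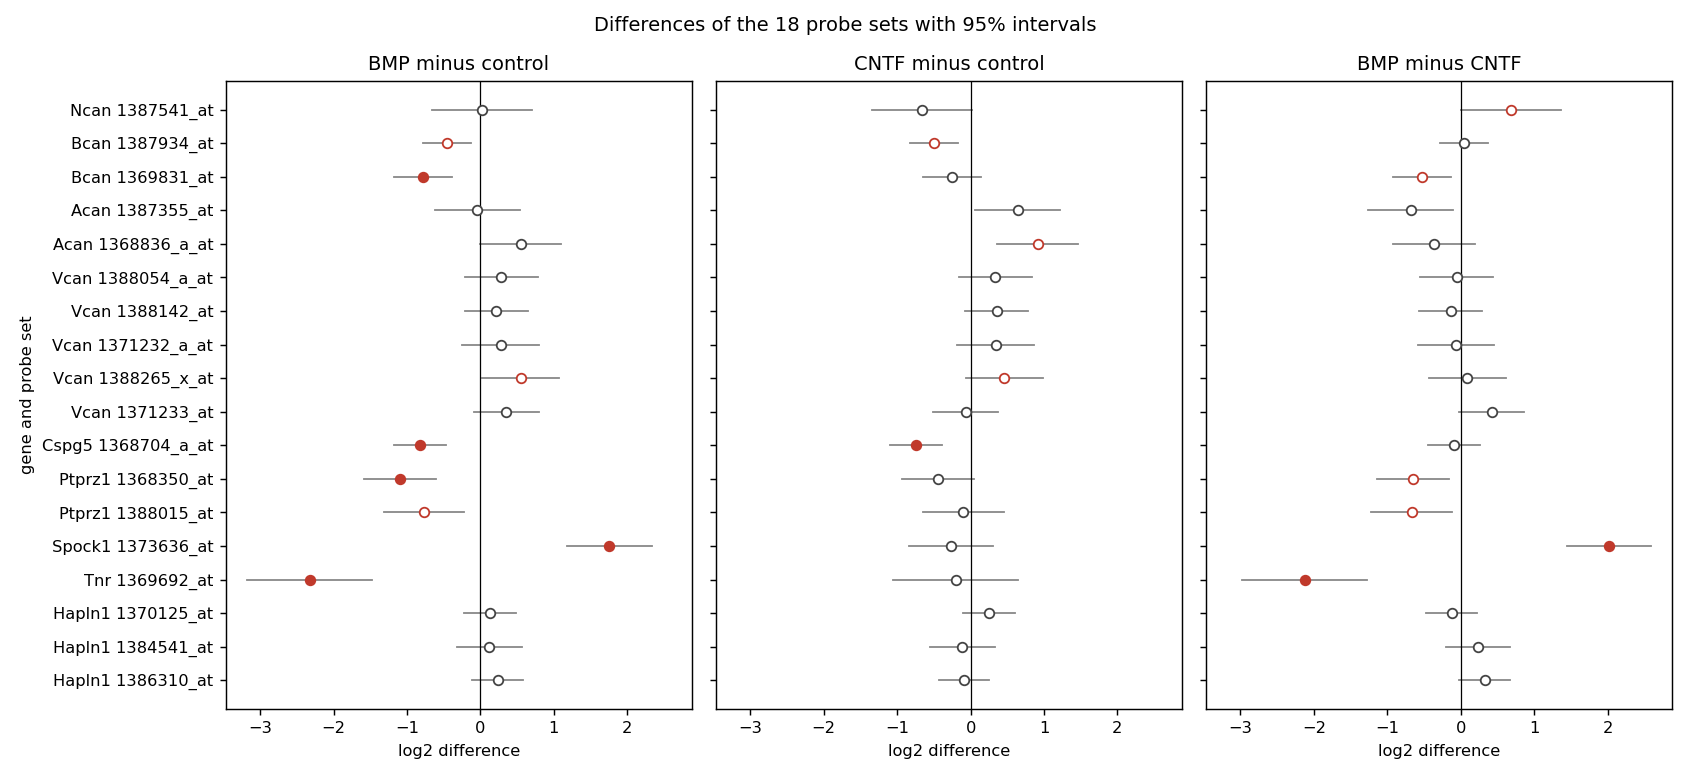
Log2 differences (horizontal axis) of the 18 member probe sets for BMP minus control, CNTF minus control and BMP minus CNTF, with 95% intervals as lines. Filled red points were called, and open red rings were called only with the title number as a block. Tnr at -2.33 and Spock1 at 1.76 lie farthest from 0 in the BMP panel.

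Tnr encodes tenascin-R, the trimeric glycoprotein that crosslinks lecticans in perineuronal nets and is made by oligodendrocytes and some neurons. Its promoter, from 250 bases before to 50 after the RefSeq start on the GRCr8 build, is shown because Tnr had the largest member difference, and lies at chr13:74624776-74625075 on the plus strand.
Tnr promoter: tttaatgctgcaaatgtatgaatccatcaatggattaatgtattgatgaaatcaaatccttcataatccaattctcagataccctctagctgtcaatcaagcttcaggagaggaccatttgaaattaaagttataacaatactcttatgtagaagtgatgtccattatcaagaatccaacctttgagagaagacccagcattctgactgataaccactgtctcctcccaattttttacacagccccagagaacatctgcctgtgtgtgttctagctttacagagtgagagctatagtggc
Of these bases 38.3% were G or C, against a median of 51.7% over 33469 promoters. The single Tnr probe set (1369692_at) read 9.36, 10.92 and 12.38 with BMP (lowest, median and highest of 6), 12.08, 13.01 and 13.82 with CNTF, and 12.15, 13.16 and 14.26 in control. In deposited intensity the medians were 1822 with BMP, 8214 with CNTF and 9128 in control. Of the 6 BMP arrays 5 lay below every control and CNTF array, and BMP 6 was the exception. BMP differed from control by -2.33 ± 0.41 (SE, limma adjusted p = 0.00202), with all 6 same-numbered pairs lower (pair differences from -3.43 to -0.96). The difference between BMP and CNTF was -2.12 ± 0.41 (limma adjusted p = 0.00316), again with all 6 pairs lower. CNTF differed from control by -0.20, with a 95% interval from -1.05 to 0.65 (limma adjusted p = 0.945). Both BMP calls held when any array or any title number was left out.

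Ptprz1 encodes a receptor tyrosine phosphatase whose secreted splice form is phosphacan, and which binds tenascins and neural adhesion molecules. The brightest probe set (1368350_at) read 13.65, 14.49 and 14.99 with BMP (lowest, median and highest), 14.62, 15.10 and 15.50 with CNTF, and 14.83, 15.62 and 15.78 in control. All 6 BMP arrays were below their same-numbered control, although the groups overlapped. BMP differed from control by -1.09 ± 0.23 (SE, limma adjusted p = 0.00793), and the call was lost without the arrays numbered 2 (adjusted p = 0.0512). CNTF differed by -0.44 ± 0.23, lower in 6 of 6 pairs and not called (adjusted p = 0.514). The second probe set (1388015_at) averaged 12.97 ± 0.80 with BMP, 13.64 ± 0.20 with CNTF and 13.74 ± 0.31 in control (SD, n = 6 each). Its BMP difference of -0.77 missed the threshold (limma adjusted p = 0.0952) and passed it with the block (adjusted p = 0.0111) or without BMP 4 (adjusted p = 0.0430). Compared with CNTF, BMP differed by -0.65 and -0.67 on these probe sets, called only with the block (adjusted p = 0.0161 and 0.0253, against 0.121 and 0.163 without it).

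Cspg5 encodes neuroglycan C, a membrane-spanning proteoglycan of neurons and glia. Its probe set (1368704_a_at) read 11.19, 11.76 and 12.20 with BMP (lowest, median and highest), 11.52, 11.78 and 12.31 with CNTF, and 12.32, 12.57 and 13.06 in control. Every treated array lay below every control array, although the highest CNTF and the lowest control array were nearly equal. BMP differed from control by -0.83 ± 0.17 (SE, limma adjusted p = 0.00593) and held whichever array or number was left out. CNTF differed from control by -0.74 ± 0.17 (limma adjusted p = 0.0227), with all 6 pairs lower (-1.02 to -0.48). With CNTF 1.97% of the table had groups that did not overlap, and Cspg5 was the 1 such member. The CNTF call was lost without control 2 (0.0620), CNTF 4, 5 or 6 (0.0567, 0.0632 and 0.0569), or the numbers 1, 5 or 6 (0.0577, 0.137 and 0.0779), all limma adjusted p. The difference between BMP and CNTF was -0.089, with a 95% interval from -0.44 to 0.27. Both comparisons with control share the control arrays.

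Spock1 encodes testican-1, a secreted proteoglycan that carries both heparan and chondroitin sulfate chains. Its promoter, with the same window and build, is shown because Spock1 was the member higher with BMP, and lies at chr17:6746642-6746941 on the plus strand. Capitals mark GGCGCC, a palindrome of the kind SMAD proteins bind.
Spock1 promoter: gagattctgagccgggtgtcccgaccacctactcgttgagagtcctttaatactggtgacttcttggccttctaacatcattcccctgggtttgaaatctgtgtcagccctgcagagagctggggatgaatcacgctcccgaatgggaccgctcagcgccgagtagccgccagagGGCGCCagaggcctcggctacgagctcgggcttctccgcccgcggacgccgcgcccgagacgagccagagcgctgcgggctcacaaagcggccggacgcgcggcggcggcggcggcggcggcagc
The match begins 75 bases before the start. GGCGCC was found in the promoters of 2 of the 7 members that had one in the table (Acan and Spock1), and in 11% of all 33469 promoters. TTCNNNGAA, the STAT-type palindrome, was in 0 of the 7 and in 8.87% of all promoters, each motif being read on both strands. The match is a description of these letters only. The Spock1 probe set (1373636_at) read 8.95, 9.45 and 10.35 with BMP (lowest, median and highest), 7.03, 7.58 and 8.09 with CNTF, and 7.19, 7.88 and 8.29 in control. All 6 BMP arrays lay above every other array, and all CNTF and control arrays lay below the table median of 9.75. BMP 2, 3, 4 and 5 lay below that median as well, and so did the BMP mean of 9.58. In intensity the median was 583.4 with BMP, against 120.9 in control, which is close to the constant added, so the fold is understated. BMP differed from control by 1.76 ± 0.27 (SE, limma adjusted p = 0.00104) and from CNTF by 2.02 ± 0.27 (limma adjusted p = 0.000169, 4.06-fold), higher in 6 of 6 pairs in both. CNTF differed from control by -0.26, with an interval from -0.84 to 0.31.

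**Figure D2:**
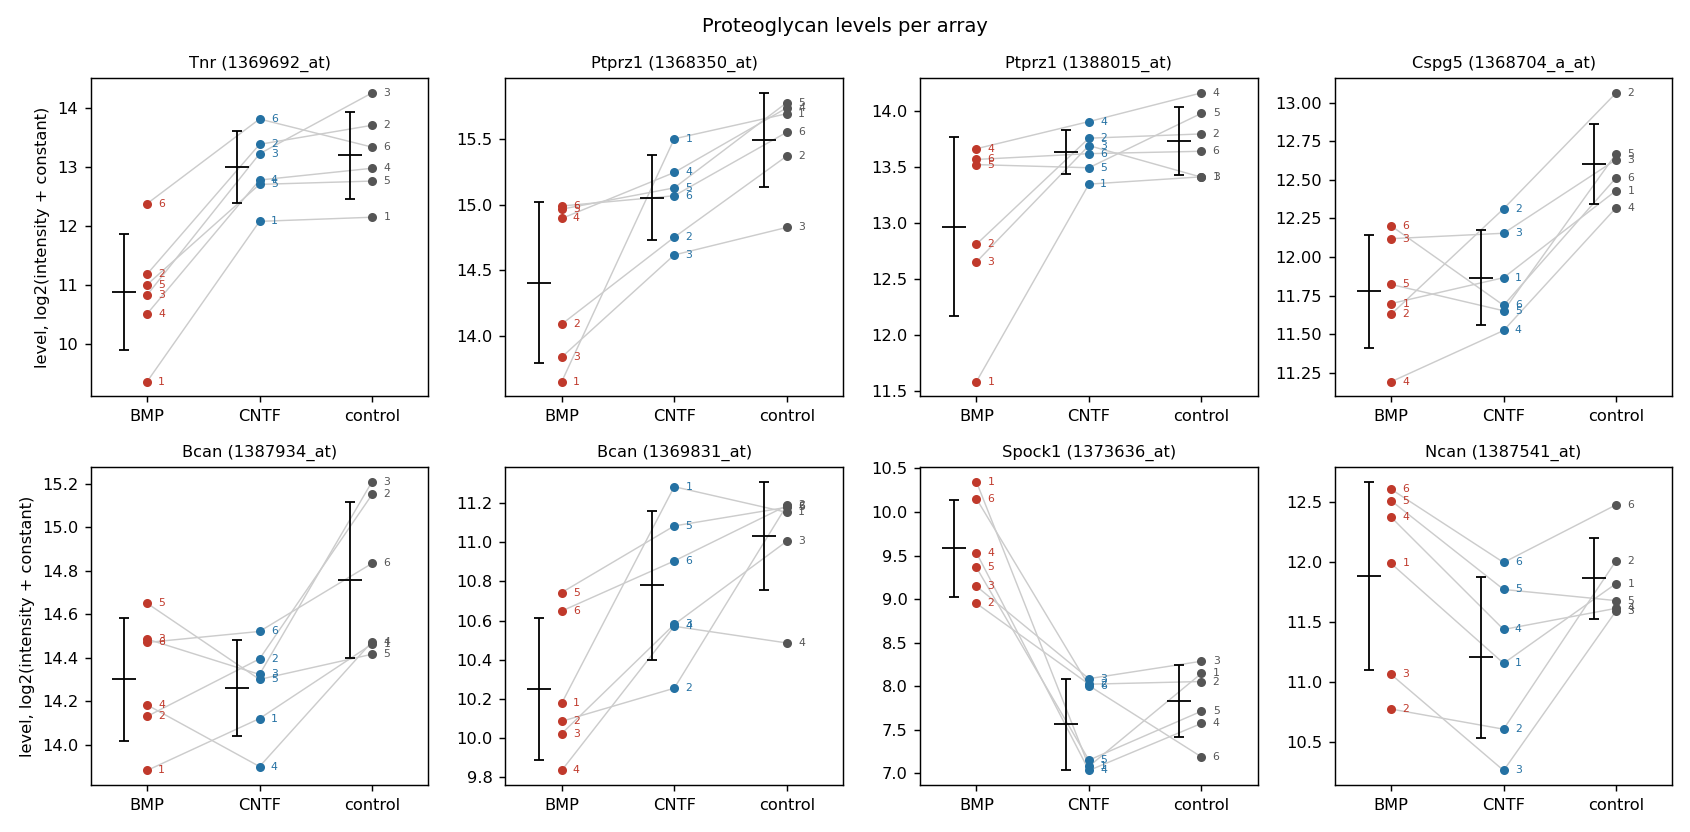
Levels, log2(intensity + 116.7), of 8 probe sets of 6 genes on all 18 arrays in BMP, CNTF and control, each point carrying its title number, with grey lines joining equal numbers and bars for mean ± SD of 6 arrays. Each panel has its own vertical range. BMP points are low for Tnr, both treated groups are low for Cspg5, and BMP points are high for Spock1.

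Brevican, the product of Bcan, is the lectican typical of the mature brain and is made by astrocytes and oligodendrocyte precursors. Its brightest probe set (1387934_at) read 13.88, 14.33 and 14.65 with BMP (lowest, median and highest), 13.90, 14.31 and 14.52 with CNTF, and 14.42, 14.65 and 15.21 in control. BMP differed from control by -0.46 ± 0.16 and CNTF by -0.50 ± 0.16 (SE), and neither was called (limma adjusted p = 0.0926 and 0.124). Both passed with the title number as a block (adjusted p = 0.0138 and 0.0164). The dimmer Bcan probe set (1369831_at) read 9.83, 10.13 and 10.74 with BMP, averaged 10.78 ± 0.38 with CNTF (SD, n = 6), and read 10.49, 11.17 and 11.19 in control. Here BMP differed from control by -0.78 ± 0.19 (limma adjusted p = 0.0172), lower in 6 of 6 pairs, while CNTF differed by -0.25 (adjusted p = 0.729). This BMP call was lost without the arrays numbered 1, 2 or 3 (adjusted p = 0.0563, 0.0796 and 0.0817). The 2 Bcan probe sets therefore gave different calls, and over the 18 arrays, which share groups and numbers, their levels had r = 0.47. Between BMP and CNTF, the dimmer one differed by -0.53 and was called only with the block (adjusted p = 0.0123, against 0.119).

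Neurocan, the product of Ncan, is a lectican of developing nervous tissue that reactive astrocytes also make. Its probe set (1387541_at) read 10.78, 12.18 and 12.61 with BMP (lowest, median and highest), 10.27, 11.30 and 12.00 with CNTF, and 11.59, 11.75 and 12.48 in control. The treated groups spread more widely than the controls, with an SD of 0.78 with BMP and 0.67 with CNTF, against 0.34 in control. BMP differed from control by 0.021, with an interval from -0.66 to 0.70. CNTF differed by -0.66 ± 0.32 (SE, limma adjusted p = 0.458), lower in 5 of 6 pairs. Between BMP and CNTF the difference was 0.68 ± 0.32, higher with BMP in 6 of 6 pairs, and it was called only with the block (adjusted p = 0.0357, against 0.284).

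Versican, the product of Vcan, is a widely expressed lectican with splice forms that differ in their chondroitin sulfate attachment regions, and oligodendrocyte-lineage cells make the brain form. The brightest of its 5 probe sets (1388054_a_at) averaged 13.85 ± 0.42 with BMP, 13.91 ± 0.48 with CNTF and 13.57 ± 0.47 in control (SD, n = 6 each). BMP was higher than control in 6 of 6 pairs, but by only 0.28 (limma adjusted p = 0.607), and CNTF differed by 0.34 (adjusted p = 0.701). Its probe sets 1388142_at, 1371232_a_at and 1388265_x_at followed the first over the 18 arrays with r between 0.79 and 0.99 among the 4. Among them 1388265_x_at, whose suffix marks probes that can match other transcripts, was called with the block alone, higher by 0.55 with BMP and by 0.46 with CNTF (adjusted p = 0.00738 and 0.0377, against 0.241 and 0.540). The fifth, 1371233_at, never exceeded 8.71 and had r of at most 0.24 with the others.

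Aggrecan, the product of Acan, is the lectican of cartilage and of perineuronal nets, and its 2 probe sets were dim. Only CNTF 6, at 9.92 on 1387355_at, stood above the table median. That probe set averaged 8.20 with BMP, 8.88 with CNTF and 8.24 in control, and 1368836_a_at averaged 8.32 with BMP, 8.68 with CNTF and 7.77 in control. The CNTF difference from control was 0.64 on the first (limma adjusted p = 0.360) and 0.91 on the second (adjusted p = 0.0867). The second was higher in 6 of 6 pairs, and it was called in the fit with the block (adjusted p = 0.0449) and in the fit without BMP 3 (adjusted p = 0.0443). Hapln1, the link protein that ties lecticans to hyaluronan, also read below the table median throughout, with no array above 8.57 on any of 3 probe sets. None of them was called in any comparison, differences stayed between -0.12 and 0.33, and Pearson r between the 3 ran from -0.55 to 0.14.

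The direct comparison of BMP with CNTF called 1 member probe set higher (Spock1) and 1 lower (Tnr), where all probe sets gave 3.24% and 2.99%. By brightest probe set the same 2 genes of 9 were called, where 3.74% of named genes were called in each direction. Spock1 was also the 1 member whose BMP and CNTF levels did not overlap, which held for 2.95% of the table. With the block 2 member probe sets were higher and 4 lower, where all probe sets gave 8.17% and 6.93%. Of the 18 probe sets 7 had an unadjusted p under 0.05, against 17.6% of all.

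Several members differed between title numbers. In a moderated F test (limma) of the number with group in the model, 9 of 18 member probe sets were called, against 32.7% of the table. These were 4 of Vcan, both of Ptprz1, 1 of Bcan, Ncan and Tnr. For Vcan (1388054_a_at) the mean of the 3 arrays of a number was 13.92, 13.92, 13.86, 13.07, 13.58 and 14.30 for numbers 1 to 6 (limma adjusted p = 0.000789). Number 4 was lowest and number 6 highest, a range larger than either difference from control. Ncan averaged 11.66, 11.13, 10.98, 11.81, 11.99 and 12.36 over numbers 1 to 6 (limma adjusted p = 0.0111). Tnr averaged 11.20, 12.76, 12.77, 12.09, 12.16 and 13.18 (limma adjusted p = 0.00187), number 1 being lowest and number 6 highest. Spock1 numbers averaged 8.04 to 8.52 (limma adjusted p = 0.801). What the numbers stand for is not given in the labels.

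**Figure D3:**
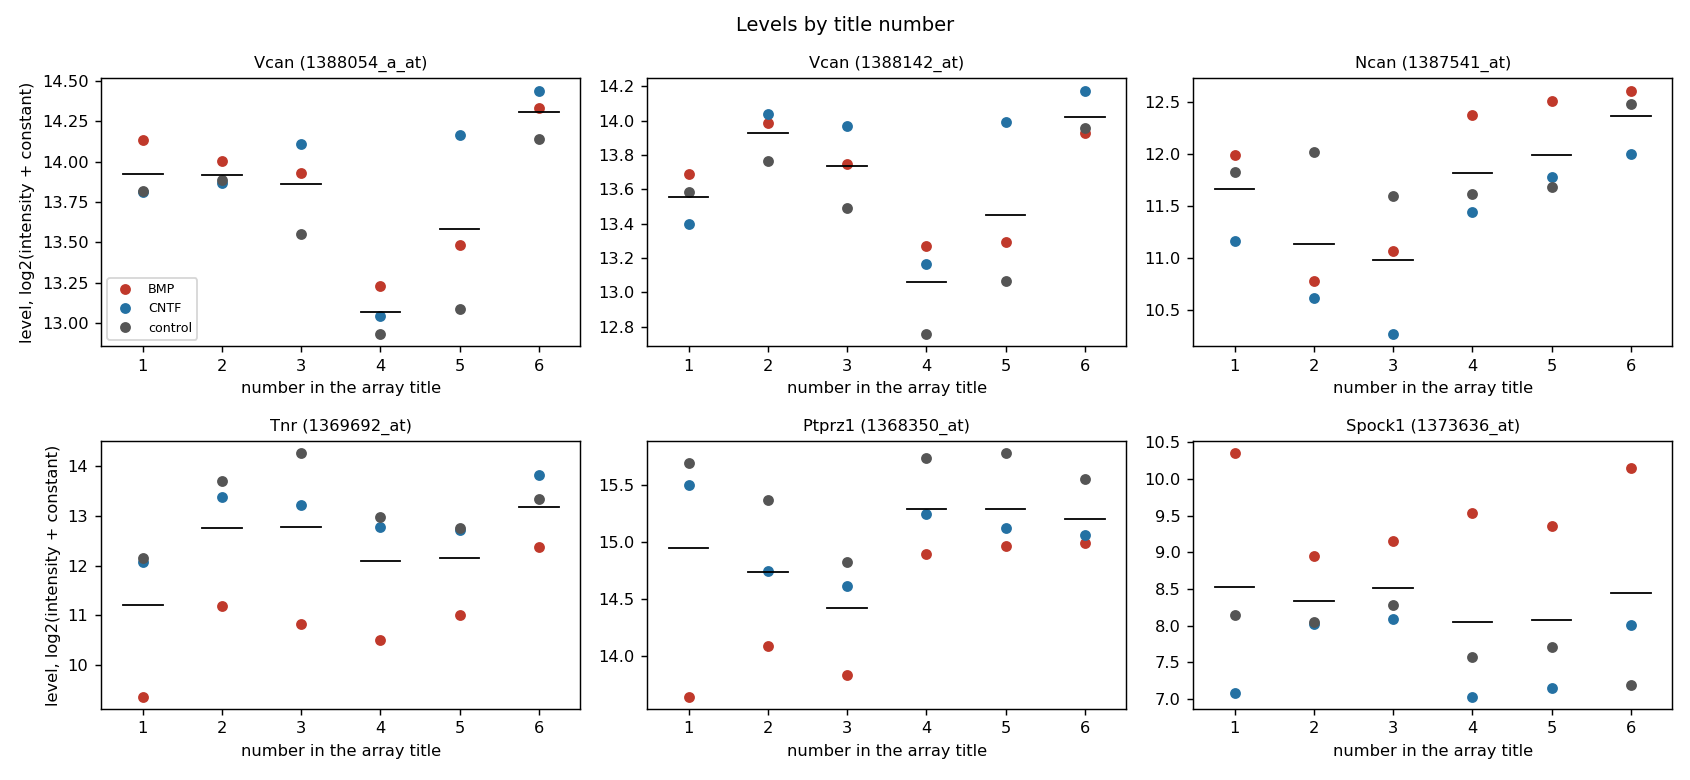
Levels, log2(intensity + 116.7), against title number 1 to 6 for 6 probe sets of 5 genes, with a point per array coloured by BMP, CNTF and control and a black bar at the mean of each number. The Vcan means are lowest at number 4, and the BMP point of Tnr lies below the other points at every number.

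Markers of other cell types were set beside these differences. Of all named genes, 4.21% were called higher and 3.02% lower with BMP, and 2.03% and 0.823% with CNTF. Markers of oligodendrocyte precursors fell with BMP in 6 of 6 measured genes, including Pdgfra (-1.80, limma adjusted p = 0.00162), Olig2 (-2.16, adjusted p = 0.00536, with -0.20 and no call on a dim second probe set) and Cspg4 (-1.40, adjusted p = 0.00249). With CNTF 0 of 6 were called without the block, and 1 was lower with it. Their summed intensity was 12385 to 80891 with BMP, 74907 to 107064 with CNTF and 90166 to 124847 in control. Of 8 oligodendrocyte markers 4 fell with BMP, and Mbp differed by -2.25 without passing on its brightest probe set (limma adjusted p = 0.0679, with the block 0.000533). The 2 other Mbp probe sets were called lower, at -1.95 and -2.64 (limma adjusted p = 0.00825 and 0.0316). Those markers summed to 14959 to 84746 with BMP, 76231 to 212201 with CNTF and 60286 to 188177 in control. Of 9 astrocyte markers 1 was called higher with BMP (Aqp4, 2.33, limma adjusted p = 0.0295) and 1 with CNTF (Gfap). With BMP, Aldh1l1, Fgfr3 and Aldoc of the same list were lower by 0.96, 0.25 and 0.22, none called (limma adjusted p = 0.232, 0.638 and 0.570). With the block 2 astrocyte markers were higher and 0 lower with BMP, and 2 higher and 1 lower with CNTF. The median difference of the 9 astrocyte markers was 0.12 with BMP and -0.03 with CNTF. Gfap differed by 2.33 with BMP and was not called (limma adjusted p = 0.0867, with the block 0.0169). With CNTF Gfap was higher by 3.96 (limma adjusted p = 0.00708), lost without number 2 or 3 (0.0557 and 0.0583). Astrocyte markers summed to 166851 to 284676 with BMP, 223146 to 342119 with CNTF and 160711 to 243754 in control. All such sums add linear intensities, so the brightest markers of a list weigh most. Of 10 neuron markers 3 rose with BMP and 0 with CNTF, with sums of 61079 to 106659 with BMP, 54079 to 77355 with CNTF and 57962 to 67679 in control. Of 9 fibroblast and meningeal markers 2 rose with BMP and 0 with CNTF, with sums of 14918 to 98303 with BMP, 2718 to 25972 with CNTF and 3651 to 14167 in control. With the block, 7 neuron and 6 fibroblast markers were higher with BMP, and 5 oligodendrocyte markers lower. With CNTF the block gave 3 neuron markers higher and 1 lower, 1 fibroblast marker higher and 1 oligodendrocyte marker higher. All probe sets gave 9.1% higher and 7.58% lower with BMP in that fit, and 4.19% and 3.38% with CNTF. In every group 0 of 8 microglia and 0 of 6 endothelial markers averaged at or above the table median, although 1 endothelial marker was called higher with BMP. In every group 8 of 9 astrocyte, 6 of 7 neural stem, 5 of 8 oligodendrocyte and 2 of 6 Schwann cell markers did. So did 5 to 6 of 6 precursor, 6 to 10 of 10 neuron and 5 to 6 of 9 fibroblast markers. Of the 7 stem markers 1 was called higher and 1 lower with BMP. No marker was at 0, the lowest value in the table being 0.404. The precursor sums were lowest on BMP 1 and highest on BMP 6 among the BMP arrays, and so were Tnr and the brightest Ptprz1 probe set. The oligodendrocyte sums had the same extremes. Other lists had other extremes among the BMP arrays. Astrocyte sums were lowest on BMP 4 and highest on BMP 6, neuron sums lowest on BMP 6 and highest on BMP 3. Fibroblast sums were lowest on BMP 4 and highest on BMP 2. The second Ptprz1 probe set was lowest on BMP 1 and highest on BMP 4. Ncan and the brightest Vcan probe set, not called with BMP, were also highest on BMP 6. Tnr was lowest at number 1 with CNTF and in control as well. Cspg5 was lowest on BMP 4 and highest on BMP 6, and the dimmer Bcan probe set was lowest on BMP 4 and highest on BMP 5. Tnr, Ptprz1, Cspg5 and the dimmer Bcan probe set were called in the same direction as the precursor markers with BMP, and the part of those markers in the member differences was not tested. In such bulk RNA, fewer cells of a type and less RNA per cell cannot be told apart.

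**Figure D4:**
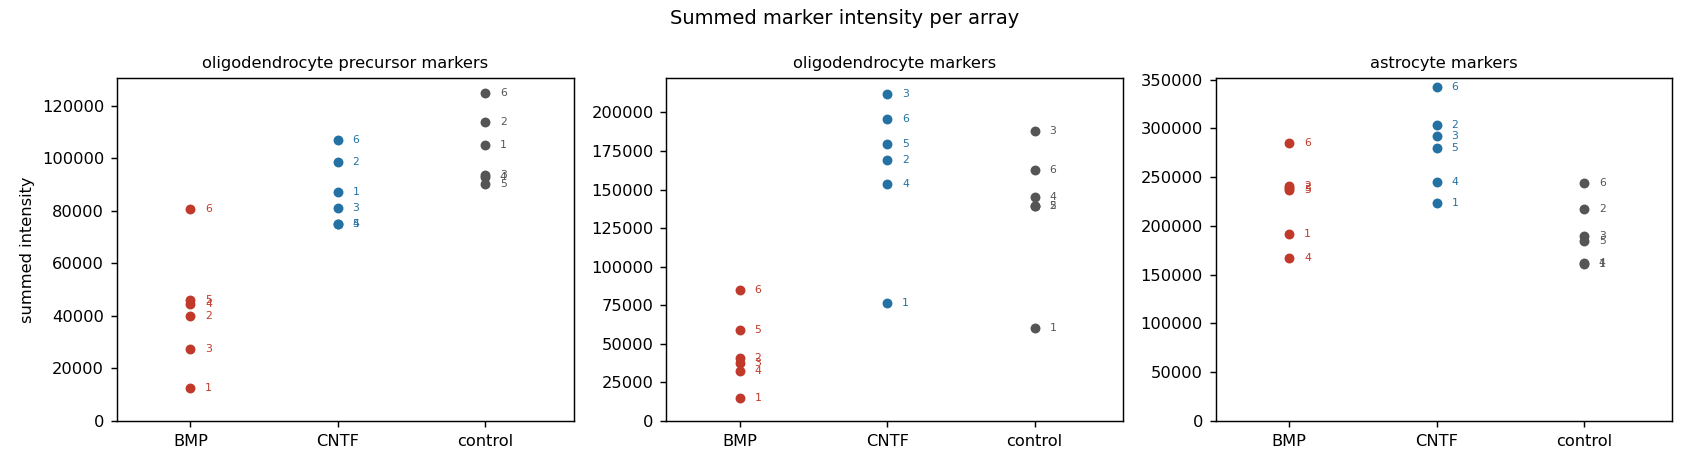
Summed intensity (vertical axis from 0) of oligodendrocyte precursor, oligodendrocyte and astrocyte markers on each array, with BMP, CNTF and control side by side and title numbers beside the points. Linear intensities were added, so the brightest markers weigh most. The precursor sums lie at 12385 to 80891 with BMP, against 90166 to 124847 in control, with BMP 1 lowest and BMP 6 highest among the BMP arrays.

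Other genes that bind, build, cut or sense this matrix were counted by their brightest probe set in 4 lists. Of all named genes, 4.21% were called higher and 3.02% lower with BMP, and 2.03% and 0.823% with CNTF. Between BMP and CNTF 3.74% were called in each direction. With the block, all probe sets gave 9.1% higher and 7.58% lower with BMP, and 4.19% and 3.38% with CNTF. Between BMP and CNTF the block gave 8.17% and 6.93%. Among 11 measured hyaluronan-bound matrix genes, BMP gave 1 higher and 1 lower, and CNTF gave 1 higher and 0 lower. The receptor for hyaluronan, Cd44, averaged 10.50 with BMP, 11.00 with CNTF and 9.12 in control. It was higher by 1.38 ± 0.32 with BMP (SE, limma adjusted p = 0.0119) and by 1.88 ± 0.32 with CNTF (adjusted p = 0.00191). The BMP call on Cd44 was lost without number 2 or 4 (adjusted p = 0.0651 and 0.0588). A second Cd44 probe set gave 1.09 with BMP, called only with the block (limma adjusted p = 0.00364, against 0.0518), and 1.56 with CNTF, called (adjusted p = 0.0111). Cspg4, the NG2 proteoglycan named above among precursor markers, was the 1 lower with BMP. Tnc, which encodes the injury-associated tenascin-C, was higher by 2.97 ± 0.67 with BMP than with CNTF (limma adjusted p = 0.0102, lost without number 2 at 0.0536), the only gene of this list called in that comparison. With CNTF it differed from control by -2.44, called by the fit with the block (adjusted p = 0.000796) and not without it (0.0647). Each lectican gene has a link protein gene as its neighbour, with 0 other protein-coding genes between them in the RefSeq gene order of GRCr8. The pairs are Vcan and Hapln1, Bcan and Hapln2, Acan and Hapln3, and Ncan and Hapln4, and none of the 4 link protein genes was called without the block. With the block, BMP gave 2 higher and 1 lower, CNTF 1 higher and 2 lower. Median list differences were 0.09 with BMP and -0.36 with CNTF, against 0.0054 and -0.0046 over all named genes.

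Among 19 measured genes of chondroitin sulfate chain synthesis and sulfation, BMP gave 1 higher and 3 lower and CNTF gave 0 higher and 1 lower. Papss2, one of the enzymes that make the sulfate donor PAPS, averaged 11.94 with BMP, 8.50 with CNTF and 10.35 in control. It was higher by 1.58 ± 0.34 with BMP (SE, limma adjusted p = 0.00765) and with CNTF it fell by 1.85 ± 0.34 (adjusted p = 0.00400), a difference between the additions of 3.43 ± 0.34 (adjusted p = 6e-06). These 3 calls held in every fit that left out arrays, but a second Papss2 probe set gave 0.99 with BMP and -1.44 with CNTF, neither called (adjusted p = 0.149 and 0.0530), and 2.43 between the additions, called (adjusted p = 0.000683). Papss1, the other PAPS synthase, was lower with BMP than in control (-0.44 ± 0.072, limma adjusted p = 0.00126) and than with CNTF (-0.28, adjusted p = 0.0255). The Papss1 call against CNTF was lost in 11 of the 24 fits that left out arrays (BMP 1, 2 or 3, CNTF 4, 5 or 6, or number 1, 2, 3, 4 or 5, adjusted p = 0.0514 to 0.109). Csgalnact1, which adds the first N-acetylgalactosamine of a chondroitin chain, differed by -1.21 with BMP (limma adjusted p = 0.0268), and Xylt1, a dim probe set for the enzyme that puts the first xylose on the core protein, by -0.89 (adjusted p = 0.0281). On a second probe set Csgalnact1 differed by -1.31 (limma adjusted p = 0.0187). The call on the brightest Csgalnact1 probe set was lost without BMP 1, 2 or 3, control 2 or 6, or number 1, 2, 3 or 5 (adjusted p = 0.0524 to 0.132). The Xylt1 call was lost without BMP 1 or 2, control 1, 4 or 6, or number 1, 4, 5 or 6 (adjusted p = 0.0556 to 0.126). With the block BMP gave 2 higher and 3 lower and CNTF 0 higher and 2 lower. For BMP against CNTF this list gave 1 higher and 1 lower, and 5 and 2 with the block. Median list differences were 0.09 with BMP and -0.09 with CNTF.

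Among 14 measured proteases that cut lecticans and their inhibitors, BMP gave 2 higher and 0 lower and CNTF 2 higher and 1 lower. Mmp14, a membrane-anchored metalloproteinase, was higher by 0.90 ± 0.14 with BMP than in control (SE, limma adjusted p = 0.00104), with no overlap, and by 0.60 than with CNTF (adjusted p = 0.0120, lost without number 2 at 0.0622). Timp2, a metalloproteinase inhibitor, was higher by 0.75 with BMP (adjusted p = 0.0212), lost without BMP 1, 2 or 3 or number 1, 2 or 3 (adjusted p = 0.0543 to 0.131). A second Timp2 probe set was higher by 1.10 (limma adjusted p = 0.00543), and a second Mmp14 probe set by 0.62 (adjusted p = 0.0434). With CNTF, the inhibitor Timp1 averaged 15.11, against 12.78 in control, a difference of 2.33 ± 0.38 (limma adjusted p = 0.00142) that held in every such fit. Adamts4, an aggrecanase that cuts brevican and aggrecan, averaged 9.57 with BMP, 12.14 with CNTF and 10.66 in control. It was higher by 1.48 ± 0.33 with CNTF than in control (limma adjusted p = 0.0195) and lower with BMP than with CNTF (-2.57 ± 0.33, adjusted p = 0.000102). Against control, BMP differed by -1.09, called only with the block (limma adjusted p = 0.000955, against 0.0585). The CNTF call on Adamts4 was lost without control 2, CNTF 3, 5 or 6, or number 2, 3, 4, 5 or 6 (adjusted p = 0.0513 to 0.0975). Timp3, the matrix-bound inhibitor, fell by 1.04 with CNTF (limma adjusted p = 0.0310), while its 3 other probe sets gave -0.54, -0.65 and -0.94 and were not called. The Timp3 call was lost in 11 fits without arrays (control 1, 2 or 6, CNTF 3, 4 or 5, number 2, 3, 4, 5 or 6, adjusted p = 0.0534 to 0.141). With the block BMP gave 6 higher and 2 lower and CNTF 3 higher and 2 lower. Median list differences were 0.59 with BMP and 0.16 with CNTF. For BMP against CNTF it gave 1 higher and 1 lower, and 4 and 2 with the block.

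All 21 receptors, ligands and binding partners on the list were measured, and BMP gave 3 higher and 1 lower, CNTF 2 higher and 0 lower. The adhesion molecules Nrcam and L1cam, which bind Ptprz1 or lecticans, were higher with BMP by 1.19 ± 0.22 and 1.49 ± 0.35 (SE, limma adjusted p = 0.00249 and 0.0148). The 2 other Nrcam probe sets were also called, at 1.08 and 0.88. The L1cam call was lost without number 2 or 3 (adjusted p = 0.0686 and 0.0551). Midkine (Mdk), a growth factor that binds Ptprz1, was higher by 0.79 (adjusted p = 0.0210), lost without BMP 1, control 3 or 6, or number 2, 3 or 6 (adjusted p = 0.0510 to 0.117). Nfasc, an adhesion molecule of nodes of Ranvier and of oligodendrocytes, averaged 12.34 with BMP, 14.16 with CNTF and 13.65 in control. It was lower with BMP than in control (-1.31, limma adjusted p = 0.0295) and than with CNTF (-1.82, adjusted p = 0.00316). The 4 other Nfasc probe sets differed from control by -1.37 to -0.075 with BMP and were not called. Leaving out BMP 1, 2 or 4, control 2, 3, 4 or 6, or number 2, 3, 4, 5 or 6 ended the Nfasc call against control (adjusted p of up to 0.120). With CNTF, Lgals3, which encodes the sugar-binding galectin-3, was higher by 3.06 ± 0.66 (limma adjusted p = 0.0138, lost without number 2 or 3 at 0.0812 and 0.0981). Rtn4rl2, a dim probe set for a relative of the Nogo receptor, was higher by 1.32 with CNTF than in control (adjusted p = 0.0204). It was lower with BMP than with CNTF (-1.59, adjusted p = 0.00276). The Rtn4rl2 call against control was lost without control 1 or 3, CNTF 5 or 6, or number 2, 3, 5 or 6 (adjusted p = 0.0507 to 0.138). Against CNTF, BMP was also higher for Ncam1 (0.89, adjusted p = 0.00966, lost without number 5 at 0.0621, and not called on either other probe set) and L1cam (1.53, adjusted p = 0.0119, lost without number 4 or 6 at 0.0536 and 0.0516). With the block BMP gave 5 higher and 3 lower and CNTF 4 higher and 3 lower. Median list differences were 0.17 with BMP and -0.04 with CNTF. For BMP against CNTF this list gave 2 higher and 2 lower, and 6 and 4 with the block.

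**Figure D5:**
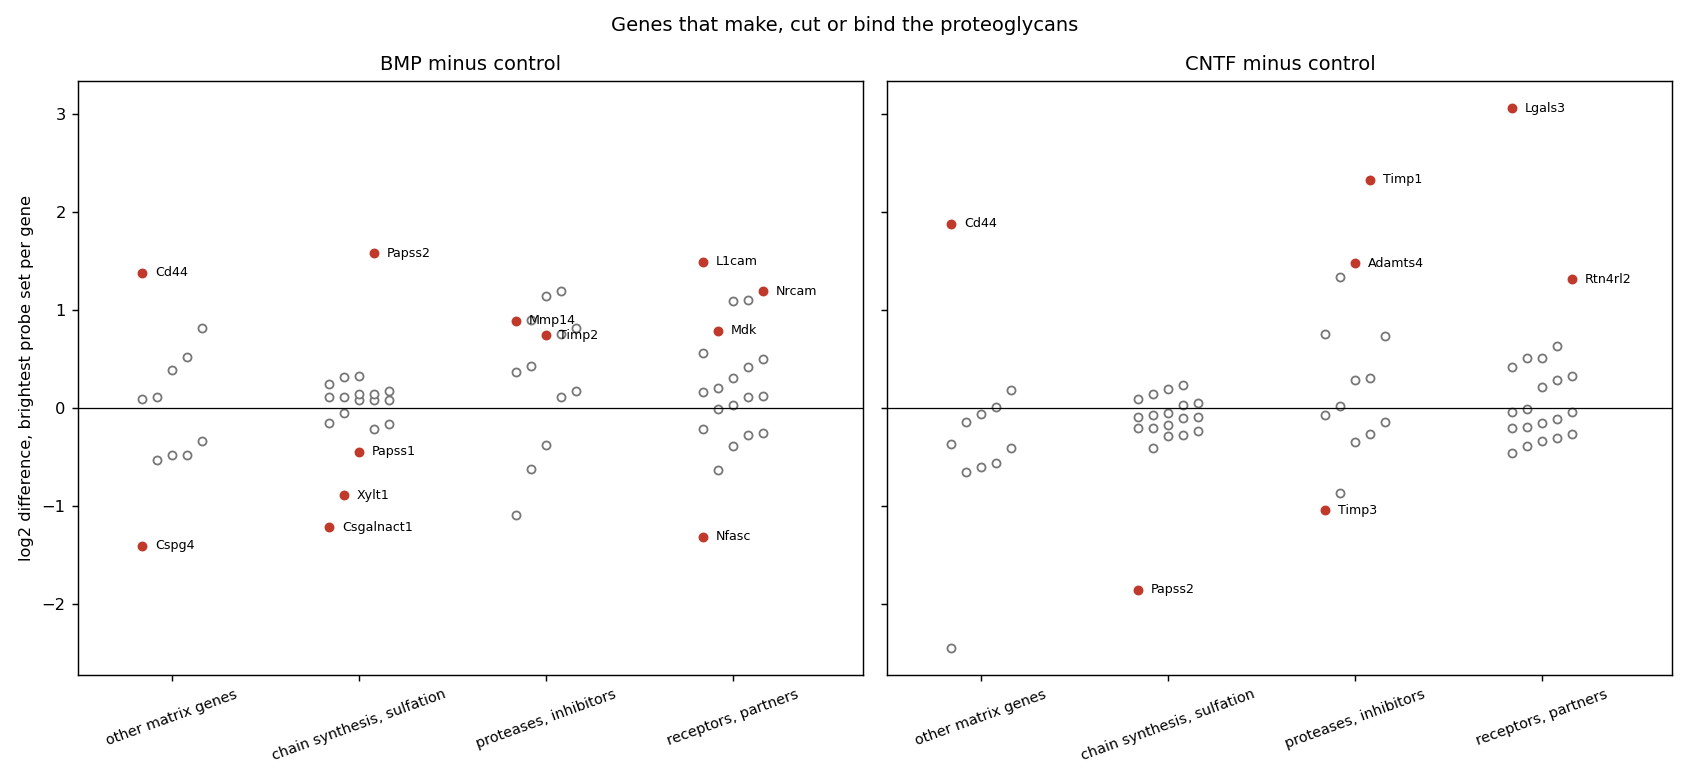
Log2 differences of the measured genes in the 4 lists of matrix-related genes, for BMP minus control and CNTF minus control, with called genes in red and named. Papss2 lies at 1.58 with BMP and -1.85 with CNTF, on opposite sides of 0.

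For each member, the named genes whose levels followed it most closely over the 18 arrays were listed by Pearson r, as a description, since the arrays share groups and title numbers. Tnr went with Glrb, the glycine receptor beta subunit, at r = 0.99, and with Ptpro, a receptor tyrosine phosphatase, at r = 0.98. Ptprz1 went with Specc1 (r = 0.94) and Sdhb (r = 0.93), and Cspg5 with Slc30a10 (r = 0.90) and Gtpbp6 (r = 0.88). Spock1 went with Slit1, an axon guidance ligand, at r = 0.90 and with Nell1 at r = 0.88. Ncan followed Bmpr1a, a type I BMP receptor, at r = 0.83 and Rarres1 at r = 0.82. Bcan followed Camsap2 (r = 0.89) and Pcsk1n (r = 0.88), and Vcan followed Fuca1 (r = 0.90) and Ccdc17 (r = 0.88). The dim Acan and Hapln1 reached r = 0.77 with Snap23 and r = 0.76 with Pnpla6, and r = 0.75 with Zmat1 and r = 0.64 with Cog2.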

How the data were processed

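Linear intensity values of 31099 probe sets per array were deposited by the authors. How probes were summarised, and on which genome build, is not given in the sources used here. Trimmed by 2% of values at each end, array means were 2500.7 to 2500.8, and the deposited scaling was kept. The authors' intensity values were converted to log2(intensity + 116.7), with the table's 20th percentile as constant. Affymetrix controls (57 probe sets) were not tested. Symbols came from the platform annotation (20826 probe sets with 1 symbol, 436 with several and 9780 with none, the last 2 kinds unnamed). All 9 member symbols matched RefSeq.

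Group means were fitted to all 18 arrays with limma 3.58.1 in R 4.3.3 (eBayes with an intensity trend), two-sided, with Benjamini-Hochberg adjustment over 31042 probe sets. Standard errors are limma's moderated ones. The fit was tested on simulated data in which arrays varied independently. That test therefore does not cover the shared deviations of same-numbered arrays. Sequences and figures were made with Python 3.11.15 and matplotlib 3.10.9. No array pair held identical values, and arrays correlated at 0.940 to 0.982.

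Before calls were compared, pairing by title number was checked: deviations from group means of same-numbered arrays correlated at 0.121 to 0.491 in 18 of 18 pairs. The pairing therefore comes from the data, since the labels do not state it.

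Members and lists were chosen with earlier results of these data known. Named were all members, up to 4 called genes with the smallest adjusted p of each matrix list per comparison, Gfap, Pdgfra, Olig2, Cspg4 and Mbp, and the 2 named genes most correlated with each member among those at or above the table median. Tnc with CNTF, Adamts4 with BMP against control, the astrocyte markers Aldh1l1, Fgfr3 and Aldoc, the link proteins and second probe sets were added after their values were seen. Alternatives were quantile normalization, other constants, a filter on dim probe sets, the block, no intensity trend, 2 groups only, and arrays or title numbers left out.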

Additional observations from a re-analysis of the deposited data

Results flagged for a closer look

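Of 54 groups of 6 arrays (18 member probe sets in 3 groups), 1 held an array far from the others. On the dimmer Bcan probe set (1369831_at) control 4 read 10.49, while the other 5 controls lay between 11.01 and 11.19, so its gap took up 0.74 of the range of the group. Chance flags about 1 in 20 groups. Without control 4, BMP differed from control by -0.89 and CNTF by -0.36 on this probe set.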

How the results depend on the processing

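Over the 54 member differences, 1584 of 1653 values under alternative settings kept their direction and side of the threshold. The replicate block raised the called member probe sets to 8 for BMP against control (5 without it), 4 for CNTF against control (1) and 6 for BMP against CNTF (2), and the genes to 2 with CNTF (1) and 4 between BMP and CNTF (2), while the table's calls went up to 5176, 2349 and 4686 (1865, 721 and 1934). The block ended no member call. Leaving out dim probe sets left 1 member gene and 1 probe set called between BMP and CNTF, because Spock1 was then not tested. In that fit Spock1 was not tested against control either.

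With arrays or a title number left out, called member probe sets ranged from 3 to 6 for BMP against control (3 without number 2) and from 0 to 2 for CNTF against control, and CNTF genes from 0 to 1. Calls over the table ranged from 740 to 2097, 366 to 795 and, between BMP and CNTF, 1111 to 1985. The lowest came without numbers 2, 5 and 2. Other large drops were 1008 without 3 (BMP), 389, 420 and 406 without 2, 3 and 6 (CNTF), and 1214 and 1190 without 3 and 5 (BMP against CNTF). The cause was not tested.

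Differences near 0 changed sign. For BMP against control, Acan 1387355_at (-0.044) gave 0.080 with a constant of 16, and -0.31 to 0.15 with arrays left out. Ncan (0.021) gave -0.0037 after quantile normalization, and -0.14 to 0.27. Hapln1 1384541_at ranged from -0.025 to 0.26. For CNTF against control, Tnr ranged from -0.41 to 0.011, Hapln1 1386310_at from -0.20 to 0.027, and Vcan 1371233_at from -0.22 to 0.060. Between BMP and CNTF, Cspg5 ranged from -0.21 to 0.030, Bcan 1387934_at from -0.032 to 0.12, and Vcan from -0.25 to 0.071 (1371232_a_at), -0.23 to 0.071 (1388054_a_at) and -0.052 to 0.22 (1388265_x_at). None of these was called in any fit. Of 31 called differences of related genes (brightest probe sets), 14 kept their call under every setting in which they were tested. Among these, the dim Rtn4rl2 between BMP and CNTF was tested in 30 settings, the others in 31. Papss1 against CNTF was also lost without the intensity trend (0.0743) and, with Xylt1 (0.0522) and Timp3 (0.0765), in fits of 2 groups only, and Rtn4rl2 with a constant of 16 (0.0547), all adjusted p. The number of arrays, and for Acan, Hapln1, Spock1, Xylt1 and Rtn4rl2 the low signal, limit precision.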
